A study of Bombyx mori with 4 samples.

Results

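Among 14622 loci measured in silkworm (Bombyx mori) prothoracic glands, 70 stood higher with prothoracicotropic hormone (PTTH) than without it after both 1 h and 3 h of culture. They were chosen on the FPKM values of the deposited Cuffdiff table (fragments counted on a locus per kilobase of its transcript, made comparable for the size of the library). A locus was taken when the ratio of (FPKM + 1), hormone over control, was at least 1.5 at each time, when the lower confidence limit with PTTH lay above the upper limit without it at each time, and when its mean over the 4 libraries was at least 1 FPKM. The last condition left 8547 loci, called tested loci here, and all 70 come from these. The 4 groups were PTTH 1 h and control 1 h, PTTH 3 h and control 3 h, with 1 library each. All were glands of racial hybrid larvae on day 4 of the fifth instar, kept for 30 min in Grace's medium and then for 1 or 3 h in 100 microliter of it with 10 nM PTTH or with none. The members of a gland pair were split between the media, glands of 12 to 18 larvae went into an RNA preparation, and 2 preparations were pooled for a library, so no group has replicates. Differences between treatments at one time therefore compare glands of the same animals, whereas differences between the times compare different pools of larvae, and a change over time cannot be told apart from a difference between pools.

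PTTH is the brain neuropeptide that drives the prothoracic gland to make ecdysteroids, the steroids that bring on moulting and metamorphosis. It acts through Torso, a receptor tyrosine kinase on the gland cells, and the mitogen-activated kinase ERK is among the signals downstream. A level of mRNA does not show whether its synthesis or its decay differed. In RNA of whole glands, more cells of a type and more RNA per cell cannot be told apart.

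No gene names are paired with the loci in the table, and 0 of its identifiers matched a reference list of 18210 silkworm genes. Loci are therefore given by scaffold position as the table lists it, with no gene name, function or sequence, and markers of the gland or of other tissues could not be looked up. The confidence limits imply about 8358610 fragments in PTTH 1 h and 8134930 in control 1 h, and 10294100 in PTTH 3 h and 9116890 in control 3 h. For the 70 loci the median was 927 implied fragments in PTTH 1 h and 230 in control 1 h, and 1377 in PTTH 3 h and 390 in control 3 h. On the same reading, limits and standard errors (SE) cover counting error only.

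At 1 h, 85 loci met the conditions for that time, 0.995% of those tested, and at 3 h 476 did, which is 5.57%. The 70 that met both are 0.819% of the tested loci, 82.4% of the 1 h list and 14.7% of the 3 h list. Lower loci by the mirrored conditions numbered 74 at 1 h and 1190 at 3 h, 0.866% and 13.9% of the tested loci. The 3 h numbers depend on scaling, since the median log2 ratio of all tested loci was -0.19 at 3 h and -0.07 at 1 h. Centred on these medians, 720 loci were higher and 611 lower at 3 h, against 99 higher and 54 lower at 1 h. Upper-quartile scaling gave 634 higher and 794 lower at 3 h. Under either scaling the 70 loci all met the conditions, and 12 or 6 further loci joined them. Both scalings raise the ratio of PTTH over control at both times, so neither could remove a locus.

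The size of the difference ranged widely. At 1 h the log2 ratios of (FPKM + 1) ran between 0.59 and 3.57 with a median of 1.00, and at 3 h between 0.59 and 4.27 with a median of 1.70. As plain ratios of FPKM the medians were 2.07-fold at 1 h and 3.51-fold at 3 h. On the scale of (FPKM + 1), a 2-fold ratio was reached by 35 loci at 1 h (0.468% of the tested loci with limits apart), by 57 at 3 h (2.4%) and by 33 at both. On that scale a 4-fold ratio was reached by 7 at 1 h (0.0936%), by 31 at 3 h (0.725%) and by 6 at both. In 61 of the 70 the limits of both PTTH libraries lay above those of both controls, and in the other 9 the upper limit of a control reached the lower limit of the PTTH library of the other time. These values chose the loci and are given as a description.

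**Figure D1:**
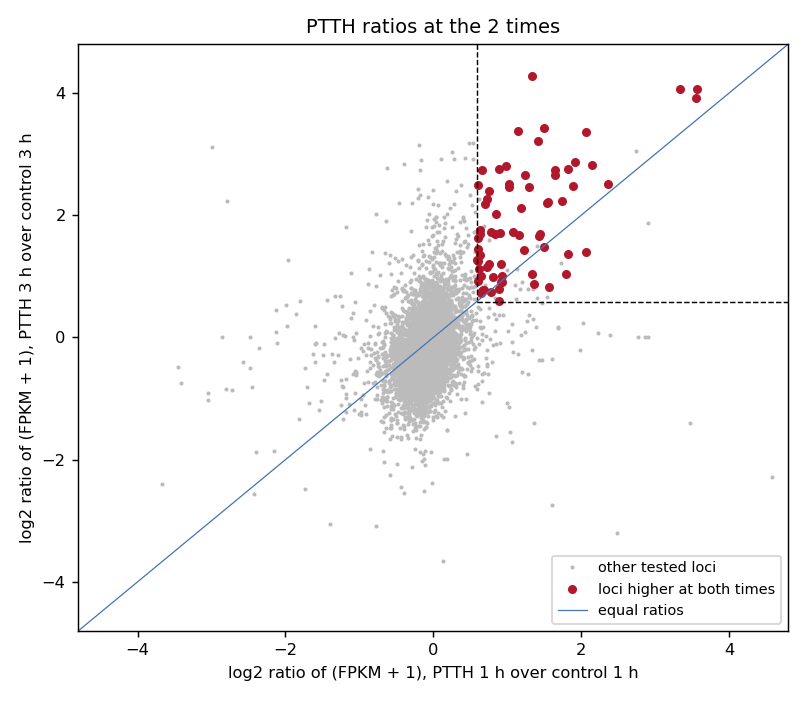
Log2 ratios of (FPKM + 1), PTTH over control, at 1 h (horizontal) and 3 h (vertical) for the 70 loci (red) and the other tested loci (grey), with the 1.5-fold thresholds dashed and equal ratios as the blue line. Most red points, 58 of 70, lie above the line, grey points inside the dashed corner are 23 loci whose confidence limits overlapped at one time or both, and 2 tested loci fall outside the axes.

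The pair of loci at the top by the smaller of their 2 ratios, printed here with their identifiers, are XLOC_009248 at nscaf2943:3603651-3608517 and XLOC_006655 at nscaf2855:6954250-6954626. XLOC_009248 stood at 1141 FPKM in PTTH 1 h and 95.2 FPKM in control 1 h, then at 1382 FPKM in PTTH 3 h and 81.8 FPKM in control 3 h. That placed it at rank 108 of all loci in PTTH 1 h and rank 774 in control 1 h, and at rank 106 in PTTH 3 h and rank 936 in control 3 h. It thus ranked among the first 1000 loci of the unstimulated gland and just outside the first 100 with the hormone, at 1 h and at 3 h. XLOC_006655, which spans 376 bases, showed the same order: rank 133 in PTTH 1 h and 1227 in control 1 h, and rank 136 in PTTH 3 h and 1458 in control 3 h. For both, the level with hormone changed little between the times, by 1.21-fold and 1.12-fold (3 h over 1 h), so most of the difference was present at 1 h.

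Next in order was nscaf2930:1477270-1477996, close to undetected without hormone. It had 16.8 FPKM (limits 14.5 to 19.0) in PTTH 1 h and 0.760 FPKM (0.254 to 1.27) in control 1 h. At 3 h the values were 32.6 FPKM (29.5 to 35.7) with PTTH and 1.00 FPKM (0.436 to 1.57) without. Its control values rest on 9.02 and 12.5 implied fragments at 1 h and 3 h, so the size of the fold is loose while the gap between the limits is wide. The locus at nscaf2902:9324199-9324679 had similar levels at both times, with 113 FPKM in PTTH 1 h and 21.2 FPKM in control 1 h, then 119 FPKM in PTTH 3 h and 20.04 FPKM in control 3 h. Its log2 ratios were 2.36 ± 0.13 at 1 h and 2.52 ± 0.12 at 3 h (counting SE), a difference of 0.15 ± 0.18. At nscaf2937:997249-997759 the ratio was 2.14 ± 0.23 at 1 h and 2.82 ± 0.20 at 3 h, as the level with PTTH reached 52.0 FPKM at 3 h against 28.8 FPKM at 1 h while the controls had 6.52 and 5.76 FPKM. In all 5 loci the limits of the PTTH libraries lay above those of both controls.

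**Figure D2:**
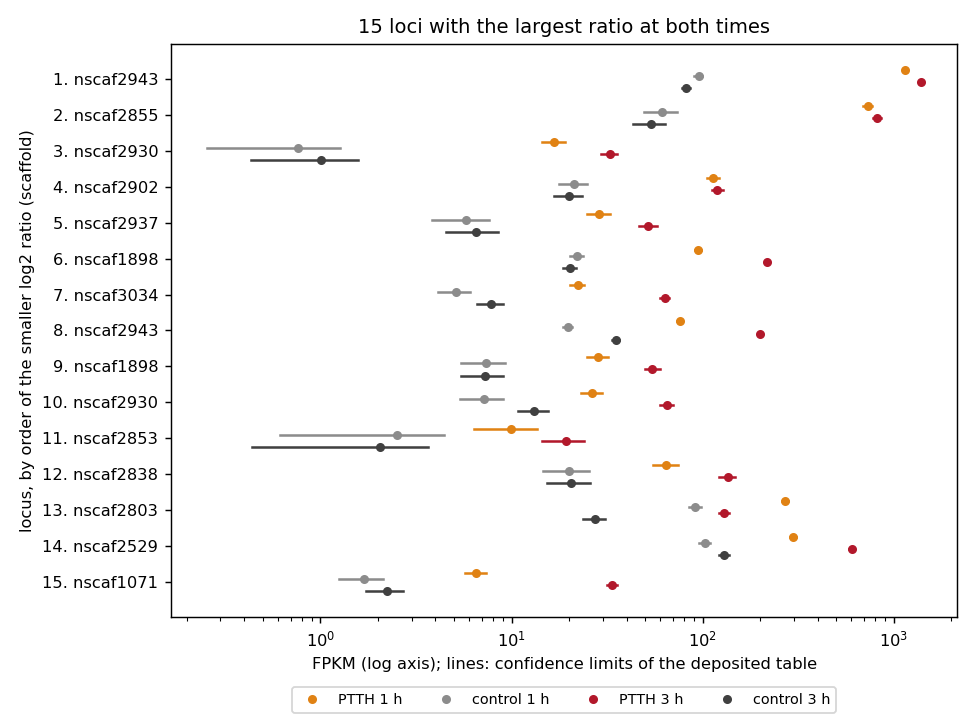
FPKM on a log axis, with the confidence limits of the deposited table as lines, for the 15 loci with the largest smaller ratio, in order from the top and named by scaffold, with PTTH 1 h, control 1 h, PTTH 3 h and control 3 h drawn from top to bottom within each locus. In all 15 the limits of both PTTH libraries lie above those of both controls, and in nscaf2803 both kinds of library are lower at 3 h than at 1 h.

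A larger body of loci at moderate levels followed. At nscaf1898:7047601-7056781 there were 94.3 FPKM (91.0 to 97.6) in PTTH 1 h and 21.9 FPKM (20.2 to 23.6) in control 1 h, a 4.30-fold ratio. At 3 h it had 218 FPKM (213 to 223) with PTTH and 20.2 FPKM (18.6 to 21.8) without, which is 10.8-fold. The limits of the controls overlapped between the times, and the level with hormone was 2.31-fold higher at 3 h than at 1 h. The locus nscaf3034:3703268-3713437 had 22.1 FPKM in PTTH 1 h and 5.11 FPKM in control 1 h, then 63.4 FPKM in PTTH 3 h and 7.79 FPKM in control 3 h. At nscaf1898:12412363-12413005, a short locus on the same scaffold as the first, the values were 28.5 FPKM in PTTH 1 h and 7.35 FPKM in control 1 h, then 54.6 FPKM in PTTH 3 h and 7.24 FPKM in control 3 h. In all 3 loci the controls differed by at most 1.52-fold between the times, and the level with PTTH was 1.92-fold to 2.86-fold higher at 3 h than at 1 h.

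Other loci in this range had controls that moved too. At nscaf2943:905053-908347 the values were 75.9 FPKM in PTTH 1 h and 19.7 FPKM in control 1 h, then 200.1 FPKM in PTTH 3 h and 35.2 FPKM in control 3 h, so the control was 1.78-fold higher at 3 h. The locus nscaf2930:1680772-1681378 had 26.3 FPKM in PTTH 1 h and 7.18 FPKM in control 1 h, then 65.1 FPKM in PTTH 3 h and 13.2 FPKM in control 3 h. These have ratios of 3.85-fold and 3.67-fold at 1 h and 5.69-fold and 4.95-fold at 3 h, on top of a higher control at 3 h. The smallest evidence in the group is at nscaf2853:4957184-4957876, where 10.0 FPKM (6.38 to 13.6) in PTTH 1 h and 2.51 FPKM (0.611 to 4.41) in control 1 h rest on 30.5 and 6.99 implied fragments. Its log2 ratios, 1.65 ± 0.46 at 1 h and 2.73 ± 0.42 at 3 h, have the largest counting SE of the 70 at both times. Only 3 of the 70 loci had under 20 implied fragments in a control library, this one, nscaf2930:1477270-1477996 and nscaf2888:4905668-4917235, and none had under 20 in a PTTH library.

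How the response developed was read from the ratio at 3 h minus that at 1 h on the log2 scale. It was positive in 58 of the 70 loci and had a median of 0.66, where the median of all tested loci was -0.11. In 37 it was at least 0.585, that is 1.5-fold (7.7% of the tested loci), in 3 it was negative by at least as much (10.6%), and in 30 it lay between. By more than 2 counting SE, 48 differences were positive and 4 negative. How many of all tested loci pass that mark, or have a positive difference, was not determined. Whether either count is particular to the set is therefore not shown. Both ratios chose the loci, so these counts are a description and no test, and far more tested loci met the conditions at 3 h than at 1 h.

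The most positive difference was at nscaf2888:4905668-4917235, a locus near zero in the controls. It had 2.39 FPKM (1.92 to 2.85) in PTTH 1 h and 0.339 FPKM (0.154 to 0.523) in control 1 h, then 22.8 FPKM (21.3 to 24.2) in PTTH 3 h and 0.228 FPKM (0.0798 to 0.376) in control 3 h. Its plain ratios were 7.04-fold at 1 h and 100.0-fold at 3 h, and the difference of log2 ratios was 2.94 ± 0.17. The ratios depend on the pseudocount: with 5 FPKM added in place of 1, they were 0.47 at 1 h, under the threshold, and 2.41 at 3 h on the log2 scale. Its controls rest on 13.5 and 9.48 implied fragments at 1 h and 3 h. At nscaf1681:2093311-2096370 the difference was 2.23 ± 0.08, because the level with PTTH was higher at 3 h, 565 against 258 FPKM at 1 h, while the control was lower at 3 h, 53.3 against 116 FPKM at 1 h. It was the one locus of the 70 in which both of these held by 1.5-fold with limits apart. At nscaf1071:74256-87000, 33.6 FPKM in PTTH 3 h compared with 6.55 FPKM in PTTH 1 h, a 5.13-fold step, beside 2.22 and 1.68 FPKM in the controls at 3 h and 1 h.

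A further pair in this class shows different routes to a larger ratio. At nscaf2853:4982027-5009896, the longest of the 70 at 27869 bases, the controls were alike at 25.7 FPKM (24.7 to 26.7) at 3 h and 27.4 FPKM (26.4 to 28.5) at 1 h. The level with PTTH was 150 FPKM (147 to 152) at 3 h and 42.4 FPKM (41.1 to 43.7) at 1 h, 3.53-fold apart, and the ratio to control went with it, 5.83-fold at 3 h and 1.54-fold at 1 h. At nscaf2822:169275-169806 the level with PTTH differed less, 1.34-fold with limits just apart, 35.7 FPKM (31.4 to 39.9) at 3 h and 26.6 FPKM (22.8 to 30.3) at 1 h. The control differed more and was lower at 3 h, at 4.51 FPKM (2.99 to 6.04) at 3 h and 16.5 FPKM (13.4 to 19.5) at 1 h, and the ratio was 7.90-fold at 3 h and 1.61-fold at 1 h.

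The most negative differences were few and small. At nscaf1690:3189321-3196609 the difference was -0.75 ± 0.11. Both libraries had more of it at 3 h, 98.1 FPKM with PTTH and 47.3 FPKM without, than at 1 h, 25.8 FPKM with PTTH and 6.74 FPKM without. The ratio was 2.08-fold at 3 h and 3.83-fold at 1 h, while the gap in FPKM was wider at 3 h. At nscaf2828:2547878-2549076, with a difference of -0.66 ± 0.13, there were 74.6 FPKM in PTTH 3 h and 27.6 FPKM in control 3 h, against a 1 h pair of 54.0 FPKM in PTTH 1 h and 12.2 FPKM in control 1 h. At nscaf2890:581692-582999 it was -0.73 ± 0.28, from 35.6 FPKM in PTTH 3 h and 19.6 FPKM in control 3 h, against a 1 h pair of 43.9 FPKM in PTTH 1 h and 14.2 FPKM in control 1 h. Here the limits of the libraries with PTTH overlapped between the times, as did those of the controls. The short locus nscaf2943:1908275-1908569 and nscaf2888:7330274-7331895 had a difference of -0.47 each, with counting SE of 0.30 and 0.40.

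Comparing 3 h with 1 h within each treatment sorts the 70 loci further. With PTTH, 36 had a ratio of (FPKM + 1) of at least 1.5 for 3 h over 1 h with limits apart (7.5% of the tested loci), 2 were lower (7.2%), and 32 were neither. Without PTTH, 11 were higher at 3 h (7.71%), 8 were lower (3.79%), and 51 were neither. These comparisons share their libraries with the selection, so the shares, 51.4% higher with PTTH against 15.7% higher without, are a description. The most frequent combination, in 26 loci, was a higher level at 3 h with PTTH over a control that was neither higher nor lower, as at nscaf2853:4982027-5009896. In 24 loci neither treatment met the conditions for a difference between the times, as at nscaf2902:9324199-9324679, and in 9 both were higher at 3 h. The shares of all tested loci in these combinations were not determined. Since the selection demands a raised ratio at 3 h, the counts do not show that a combination is particular to the set.

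**Figure D3:**
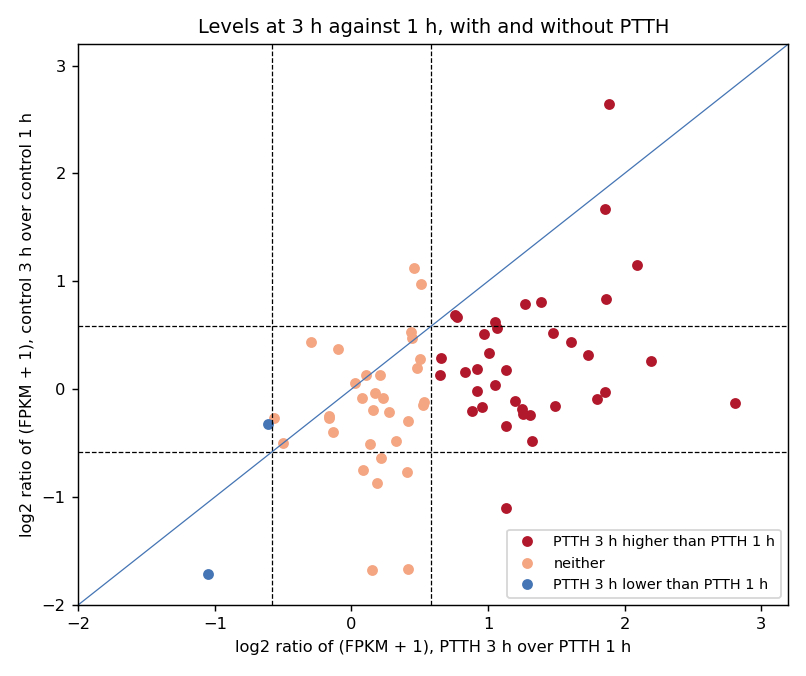
Log2 ratios of (FPKM + 1) at 3 h over 1 h for the 70 loci, with PTTH (horizontal) and without it (vertical), with 1.5-fold marked by dashed lines and equal ratios by the blue line; colours give the call with PTTH, which also needs confidence limits apart. The 58 points below the line have a larger PTTH ratio at 3 h than at 1 h, among them 26 called higher with PTTH over a control called neither higher nor lower, and the 8 with a lower control at 3 h.

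A larger ratio at 3 h came with several combinations, and their shares among all tested loci were not determined. Of the 37 loci whose ratio was at least 1.5-fold larger, 25 had a higher level with PTTH at 3 h, 8 had a lower control at 3 h, 1 locus is in both counts, and 5 had neither by the conditions used. Loci of the first kind, singled out after their values were seen, include nscaf2655:524217-535643, at 361 FPKM in PTTH 3 h and 99.2 FPKM in PTTH 1 h over controls of 52.4 and 53.3 FPKM. They also include nscaf2868:352442-358334, at 501 FPKM in PTTH 3 h and 177 FPKM in PTTH 1 h over controls of 93.9 and 105 FPKM. At nscaf2210:1895881-1902432 the corresponding levels were 510 FPKM and 214 FPKM with PTTH, and 91.8 and 105 FPKM in the controls. In these 3 loci the control differed by less than 1.5-fold between the times, and the level with PTTH by 2.39-fold to 3.64-fold.

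The 8 loci with a lower control at 3 h made up 11.4% of the set. A lower control raises the ratio at 3 h unless the level with PTTH is lower by as much. All 8 had a larger PTTH ratio at 3 h, which therefore follows largely from the call. The largest control differences were at nscaf2822:169275-169806, given above, nscaf2803:14721-15288 and nscaf3075:951708-952998. At nscaf3075:951708-952998 the control was 59.6 FPKM (56.1 to 63.1) at 3 h and 193 FPKM (186 to 200) at 1 h, while the PTTH libraries had 423 FPKM (414 to 432) at 3 h and 382 FPKM (373 to 390) at 1 h. At nscaf2803:14721-15288 the control was 27.2 FPKM at 3 h and 91.7 FPKM at 1 h, and with PTTH the level was lower at 3 h as well, 130 against 270 FPKM at 1 h. At nscaf3075:951708-952998 the difference between the times was in the control alone by the conditions used, and at nscaf2803:14721-15288 it was in both treatments.

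The remaining 4 of the 8 not yet described were chosen after their values were seen. They are nscaf2888:7332539-7334003, nscaf2826:318981-319815, nscaf2674:6969709-6975856 and nscaf2176:2991015-2992920. With PTTH their levels at 3 h and 1 h differed by at most 1.33-fold, at 98.7 and 74.2 FPKM, 19.7 and 16.8 FPKM, 6.72 and 5.78 FPKM, and 7.06 and 6.61 FPKM. The controls were 23.6 and 41.0 FPKM, 5.405 and 8.98 FPKM, 1.38 and 3.36 FPKM, and 1.965 and 3.99 FPKM at 3 h and 1 h. At nscaf2888:7332539-7334003 the limits with PTTH lay apart, at 90.3 to 107 FPKM at 3 h and 66.7 to 81.6 FPKM at 1 h, and the 1.33-fold step was under the 1.5-fold condition. In the other 3 the limits with PTTH overlapped between the times.

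Among the 11 loci with a higher control at 3 h, 15.7% of the set, the levels with and without hormone moved alike in several. At nscaf2589:4896507-4902867 there were 41.8 FPKM in PTTH 3 h and 10.8 FPKM in PTTH 1 h, a 3.85-fold step, and 20.6 FPKM in control 3 h and 5.79 FPKM in control 1 h, a 3.55-fold step. The ratio to control was therefore near the same, 2.03-fold at 3 h and 1.87-fold at 1 h. At nscaf3026:717221-743220 the step was 1.70-fold with PTTH and 1.61-fold without, and at nscaf2964:4562983-4570493 it was 1.717-fold and 1.604-fold. These 3 loci were singled out after their values were seen. Their differences of log2 ratios, 3 h minus 1 h, were 0.19 ± 0.29, 0.08 ± 0.05 and 0.10 ± 0.06 (counting SE). The ratio to control was thus similar at both times, on a level that differed between the times in both media. By contrast, at nscaf2795:524249-542995 the level with PTTH was 4.44-fold higher at 3 h, against 2.38-fold without.

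In other loci neither treatment met the 1.5-fold condition between the times, and the following were chosen after their values were seen. At nscaf2136:2648133-2665164 there were 176 FPKM (170 to 182) in PTTH 1 h and 62.1 FPKM (58.4 to 65.9) in control 1 h. At 3 h there were 190 FPKM (184 to 197) with PTTH and 68.0 FPKM (64.3 to 71.7) without. The limits with PTTH lay apart between the times, a 1.08-fold step. Its ratios were 2.84-fold at 1 h and 2.80-fold at 3 h, with a difference of log2 ratios of -0.02 ± 0.07. At nscaf2860:616032-618483 the ratios were 1.73-fold at 1 h and 1.69-fold at 3 h. At nscaf2847:2042124-2043177 they were 2.36-fold and 2.73-fold, with controls of 36.1 FPKM at 1 h and 35.3 FPKM at 3 h and a 1.13-fold step with PTTH, limits apart. Only 2 loci had less at 3 h with PTTH by the conditions used, nscaf2803:14721-15288 and nscaf2801:597999-599981. The second of these had 6.92 FPKM in PTTH 3 h and 11.1 FPKM in PTTH 1 h, with controls of 2.85 and 3.83 FPKM at 3 h and 1 h.

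The 70 loci spanned a wide range of abundance. In PTTH 1 h they ran between 2.39 and 1426 FPKM with a median of 56.0, and in control 1 h between 0.339 and 926 FPKM with a median of 21.6. In PTTH 3 h the range was 5.91 to 2988 FPKM with a median of 93.8, and in control 3 h 0.228 to 1375 FPKM with a median of 27.2. The medians of all tested loci were 13.6 FPKM in PTTH 1 h and 14.6 FPKM in control 1 h, then 13.3 FPKM in PTTH 3 h and 15.5 FPKM in control 3 h. Together the 70 loci held 1.46% of all FPKM in PTTH 1 h and 0.626% in control 1 h, and 2.25% in PTTH 3 h and 0.639% in control 3 h. In sum they were 2.29-fold higher with hormone at 1 h and 3.41-fold higher at 3 h. At least 100 FPKM was reached by 21 of them in PTTH 1 h and 13 in control 1 h, and by 31 in PTTH 3 h and 9 in control 3 h.

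**Figure D4:**
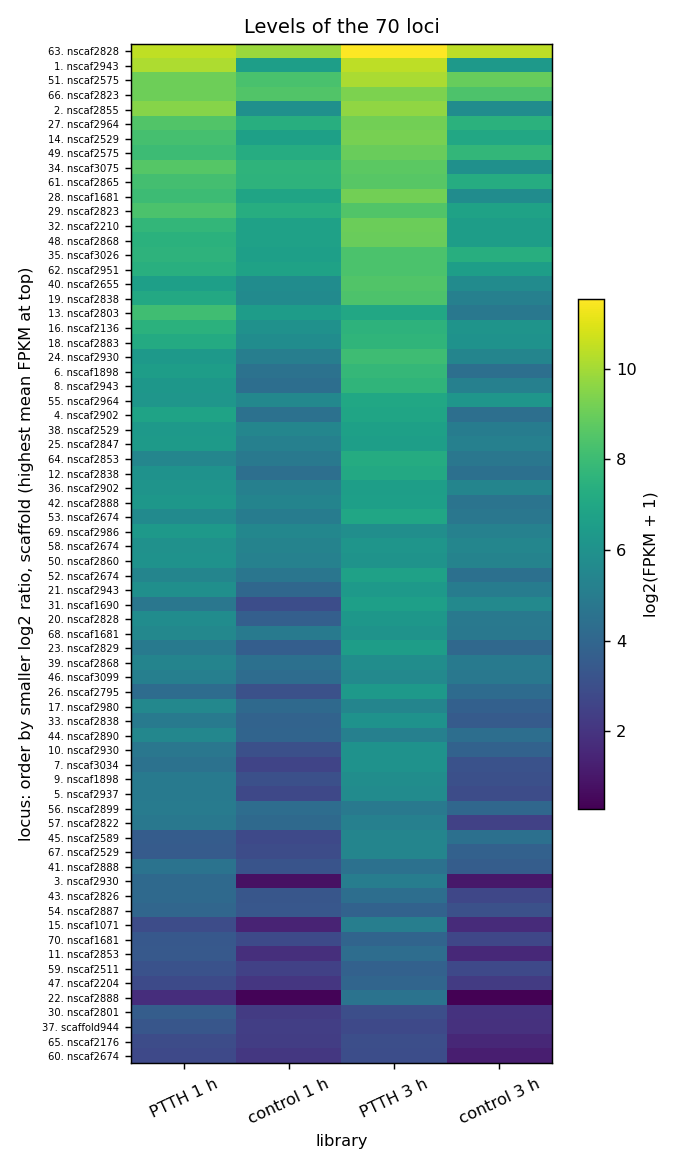
Levels of all 70 loci as log2(FPKM + 1), one row per locus with the highest mean FPKM at the top, in PTTH 1 h, control 1 h, PTTH 3 h and control 3 h; the number before each scaffold is the order by the smaller ratio. Every row is brighter in a PTTH column than in the control column of the same time, and 1 locus, nscaf2828, exceeds 1000 FPKM in a control.

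The most abundant of them, at nscaf2828:5431044-5431251, is also the shortest at 207 bases. It had 1426 FPKM in PTTH 1 h and 926 FPKM in control 1 h, then 2988 FPKM in PTTH 3 h and 1375 FPKM in control 3 h, ratios of 1.54-fold and 2.17-fold. Of the 70 it alone reached the 100 most abundant loci of a library, at rank 99 in PTTH 1 h and rank 64 in PTTH 3 h, against ranks 124 and 108 in control 1 h and control 3 h. XLOC_009248 came second in mean level. The third, nscaf2575:2896888-2897425, had 527 FPKM in PTTH 1 h and 318 FPKM in control 1 h, then 1093 FPKM in PTTH 3 h and 490 FPKM in control 3 h. The fourth, nscaf2823:4120083-4123225, had narrow limits, at 540 FPKM (532 to 547) in PTTH 1 h and 354 FPKM (347 to 360) in control 1 h, and at 634 FPKM (626 to 642) in PTTH 3 h and 333 FPKM (327 to 340) in control 3 h. XLOC_006655 was the fifth. The other 3 of these 5 had ratios between 1.52-fold and 2.23-fold.

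The conditions themselves favour loci with many fragments, because limits must lie apart and the added 1 FPKM shrinks low ratios. Of the tested loci with a mean of 1 to 5 FPKM, 2 of 1994 are in the set, or 0.1003%. The share was 0.455% between 5 and 20 FPKM (14 of 3074), 1.17% between 20 and 100 FPKM (32 of 2735) and 2.96% at 100 FPKM or more (22 of 744). Low loci raised by the hormone could therefore be missed.

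The selection did not use the span of a locus, and the set held a larger share of short loci than the tested loci as a whole. The median span was 2063 bases in the 70 and 4524 bases in all tested loci. Under 1000 bases were 20 of the 70, or 28.6%, against 14.1% of the tested loci, and at least 10 kb were 15.7% against 23.4%. Of the tested loci under 1000 bases, 1.65% were in the set, and of the longer ones 0.681%. The loci called at 3 h but not at 1 h had a median span of 3581 bases. The 20 short loci had median log2 ratios of 1.24 at 1 h and 2.22 at 3 h, and the other 50 had 0.93 and 1.68. These ratios chose the loci, and a locus with few fragments needs a larger ratio for its limits to lie apart. The medians are therefore a description. FPKM divides by transcript length, so the level of a short locus leans more on how the length and fragment size were set. A test of the span was not made, and the part of abundance in it was not tested.

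**Figure D5:**
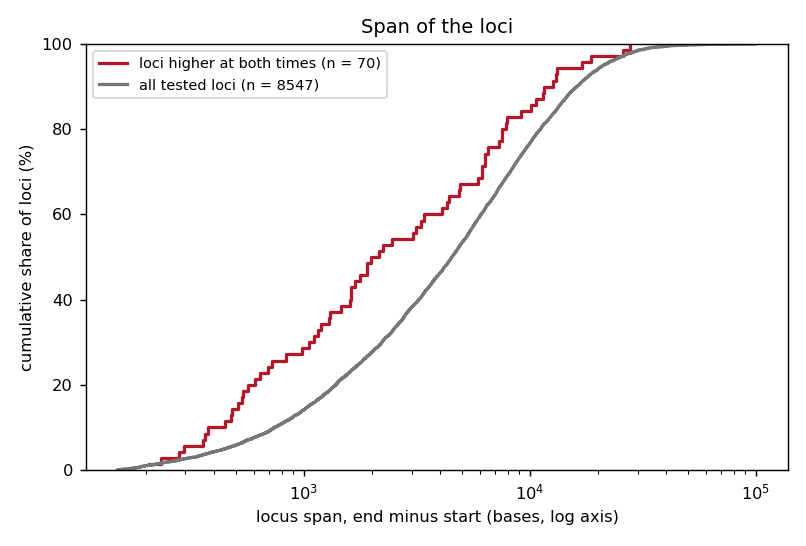
Cumulative share of loci (vertical, %) by span in bases (horizontal, log axis) for the 70 loci (red) and all 8547 tested loci (grey). The red curve lies to the left of the grey one over most of the range, with medians of 2063 and 4524 bases.

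The 70 loci lay on 47 scaffolds, of 354 with a tested locus, and 15 scaffolds held more than one. The most on a scaffold were 4 on nscaf2674, which has 194 tested loci. For 7 loci (10.0%) the next tested locus on the scaffold was another of the set, where 1.51% of all tested loci stand next to one of the set. The 7 form a run of 3 on nscaf2838 and a pair each on nscaf2575 and nscaf2888. None of the 70 overlaps another locus of the table, but close neighbours may be parts of one transcript, and the table does not allow that to be checked.

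The run on nscaf2838 lies at 156546-156780, 178873-179320 and 182881-185118, with gaps of 22093 and 3561 bases. The first locus had 134 FPKM in PTTH 1 h and 49.8 FPKM in control 1 h, then 337 FPKM in PTTH 3 h and 35.3 FPKM in control 3 h. The second had 28.6 FPKM in PTTH 1 h and 13.5 FPKM in control 1 h, then 63.9 FPKM in PTTH 3 h and 10.4 FPKM in control 3 h. The third had 64.6 FPKM in PTTH 1 h and 20.1 FPKM in control 1 h, then 135 FPKM in PTTH 3 h and 20.6 FPKM in control 3 h. All 3 were higher in PTTH 3 h than in PTTH 1 h, by 2.52-fold, 2.24-fold and 2.09-fold. The next tested locus, at 190574-193674, had 18.2 FPKM in PTTH 3 h and 15.9 FPKM in control 3 h, so the shared difference stopped there.

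The pair on nscaf2575, 2894961-2896559 and 2896888-2897425, is 329 bases apart and ran in parallel at different levels. The ratios at 1 h were 1.69-fold and 1.66-fold, and at 3 h 2.31-fold and 2.23-fold. The pair on nscaf2888, 7330274-7331895 and 7332539-7334003, is 644 bases apart and did not: the ratio was 2.74-fold and 1.81-fold at 1 h, and 1.92-fold and 4.19-fold at 3 h. The next tested loci there, 7341245-7356400 and 7359787-7380263, were near the control at 1 h and far above it at 3 h. They had 13.6 and 13.0 FPKM in PTTH 1 h and 12.6 and 15.0 FPKM in control 1 h, then 120 and 119 FPKM in PTTH 3 h and 15.0 and 16.98 FPKM in control 3 h. Within about 50 kb, 4 consecutive tested loci were thus higher with hormone at 3 h, but only the first pair was so at 1 h.

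On nscaf2674 a similar group of 3 loci included one that missed the set at 1 h. The outer loci, 5596413-5598183 and 5627420-5640488, had ratios of 1.67-fold and 1.64-fold at 1 h and 4.98-fold and 4.68-fold at 3 h. The locus between them, 5609603-5610047, had 29.6 FPKM in PTTH 1 h and 25.3 FPKM in control 1 h, then 88.9 FPKM in PTTH 3 h and 19.9 FPKM in control 3 h. Its 1 h values rest on 43.5 implied fragments with PTTH and 34.0 without, and their limits overlapped. Its log2 ratio at 1 h was 0.22 ± 0.32, beside 0.72 ± 0.11 and 0.70 ± 0.07 in the outer loci (counting SE). Whether it differed from them at 1 h is not settled. Over the whole set, 122 tested loci outside it stand next to one of its loci. Of these, 1 was called higher at 1 h and 7 at 3 h, which is 5.74%, beside 4.78% of the 8355 tested loci that neither belong to the set nor stand next to it.

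Most loci that met the 1 h condition were higher at 3 h too. The 3 h libraries are of other larvae and entered the 1 h list only through the filter on the mean of the 4 libraries. Without that filter 87 loci were called at 1 h. Of the 85 loci called at 1 h, 80 had more FPKM with PTTH than without at 3 h, where 33.0% of all tested loci did, and in 58 the ratio of (FPKM + 1) was at least 2. The 70 of the set are among the 80 by their own condition at 3 h, and 57 of the 58 are in the set. Of the 15 that did not enter the set, 10 had more FPKM with PTTH at 3 h. These 15 had a median log2 ratio of 0.83 at 1 h and 0.18 at 3 h, between -0.77 and 1.22, and 1 of them was called lower at 3 h. The 406 loci called at 3 h alone had a median log2 ratio of 0.87 at 3 h, against 1.70 in the set, and of 0.07 at 1 h, and 64.0% of them had more FPKM with PTTH at 1 h, where 32.7% of all tested loci did. A ratio of (FPKM + 1) of at least 4 at 3 h was found in 31 of the 70 (44.3%) and 31 of the 406 (7.64%). Both groups of loci were chosen by their ratios at 3 h, so these shares are a description. With 1 library a group, no test of this difference was possible.

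The edge of the set was not a gap in the data. Just inside lay nscaf1681:1688407-1701679, with (FPKM + 1) ratios of 1.501 at 1 h and 2.40 at 3 h, nscaf2986:2277120-2284694 with 1.85 and 1.506, and nscaf1681:4200840-4207002 with 1.518 and 2.38. Just outside lay nscaf2176:1202422-1208982, with 1.489 at 1 h and 3.35 at 3 h, nscaf1898:15201628-15207127 with 1.481 and 1.99, and nscaf1898:15166043-15182642 with 1.479 and 4.13. The first of these outside, at 588 FPKM in PTTH 1 h and 395 FPKM in control 1 h, then 1489 FPKM in PTTH 3 h and 443 FPKM in control 3 h, had a higher mean over the 4 libraries than 69 of the 70. With limits apart at both times and any size of ratio, 197 tested loci were higher with the hormone.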

How the data were processed

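RNA of prothoracic glands was sequenced as paired-end mRNA libraries, per the labels' protocols, with 1 pooled library in each of 4 groups. The submitters' processing notes name CASAVA 1.8.0, SAMtools and TopHat. The authors deposited FPKM with lower and upper confidence limits, per the file headers; for the genome build, annotation, scaling between libraries and kind of limit, the entry is: not given in the sources used here. The 5 ratio columns were not used. On the log2 scale ratios are of (FPKM + 1), so changes of low loci are understated; folds of single loci are plain ratios of FPKM, and fold conditions and counts are on (FPKM + 1). If an upper limit lies 2 Poisson standard deviations above the value, it implies a number of fragments; 88.2% to 94.1% of values under about 10 fragments came out as multiples of 0.5 within 0.02. Counting SE come from the limits. No test was made, since a group is 1 library. The loci and lists were chosen with earlier results of these data known; gene lists and cell type markers could not be applied without names. Loci named are those with the largest smaller ratio (15), the most positive and negative differences (5 each), the highest means (5) and 3 either side of the threshold; others are said to be chosen after their values were seen, as were the positional groups and the examples of each time course. The selection of loci was checked on simulated libraries with Poisson counting error only. They held no variation between pools of glands, so the check does not cover that error. Python 3.11.15, numpy 2.4.6, pandas 2.3.3 and matplotlib 3.10.9 were used.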

Additional observations from a re-analysis of the deposited data

How the results depend on the processing

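All 70 loci met the conditions with a pseudocount of 0.1 FPKM, with no filter and with no demand on the limits. The same held with centring, upper-quartile scaling or a fixed total per library. These settings loosen a condition or favour PTTH over control at both times, so they could hardly remove a locus. Of the stricter settings, all 70 met those with at least 20 implied fragments in the PTTH libraries and without loci listed at 0. With a mean of at least 5 FPKM 68 remained, and with a pseudocount of 5 FPKM 55 did. A 2-fold ratio left 33 at both times, 40 at 1 h and 205 at 3 h, and a 4-fold ratio left 6, 8 and 62. Without the demand on the limits 168 loci were higher at 1 h, and centring gave 720 at 3 h and moved the median log2 ratio of the 70 at 3 h to 1.89. Loci lower in PTTH 3 h than in PTTH 1 h, 2 as deposited, were 1 with a pseudocount of 5 FPKM or at 2-fold and 4 with a fixed total. At 2-fold, 4 loci were higher and 4 lower in control 3 h than in control 1 h, and with a pseudocount of 5 FPKM 5 were lower. Of the 70, 13 had another of the set within 50 kb and 17 among the nearest 3 tested loci on either side. A wider definition takes in more loci, and the shares of all tested loci by these definitions were not determined. For the 27 loci named by rule, another pseudocount or scaling moved 55 log2 ratios beyond counting error and left 215 within it. Of the 55, 23 moved with a pseudocount of 5 FPKM and 15 with centring. No ratio changed sign, which a pseudocount cannot do. With a pseudocount of 5 FPKM 3 of the 5 with the most positive differences fell under the 1.5-fold condition at 1 h. Their log2 ratios were 0.47 (nscaf2888:4905668-4917235), 0.55 (nscaf2822:169275-169806) and 0.55 (nscaf2853:4982027-5009896), against 1.34, 0.66 and 0.61 as reported. No paired analysis was possible because each group is 1 pooled library. Control depth limits the folds of 3 loci with under 20 implied fragments.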
